A study of Mus musculus with 2 samples.

Results

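Open chromatin was described at 6 genes of the Myc network, Myc, Mycn, Mycl, Max, Mga and Mxi1, in mouse embryonic stem cells (mESCs). The 6 genes were taken by name from the GENCODE vM21 annotation of mm10, in which 21938 protein-coding genes were examined. For each gene, the ATAC-seq peak covering its start and every peak overlapping the gene or the 50 kb on either side of it were collected. This gave 85 peaks, of 116777 on chromosomes 1 to 19, X and Y. ATAC-seq cuts accessible DNA with the Tn5 transposase, so that a peak marks a stretch where more fragments were recovered than in the DNA around it.

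The cells were EHMT2-dTAG mESCs of a BL6/129 hybrid strain, in which both copies of Ehmt2, encoding an H3K9 methyltransferase, carry a degron tag and a mCherry reporter. The 2 samples came from 2 independent clones, each with 50000 cells treated with DMSO for 24 h, the vehicle of the degrader, so that EHMT2 was not depleted. The cells grew in medium with serum and LIF on a feeder layer of mouse embryonic fibroblasts, which also hold open chromatin. The list of peaks was called on both clones merged. It has no spread between clones, no second condition and therefore no test, and every comparison below is a description of 1 merged sample.

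MYC, MYCN and MYCL are basic helix-loop-helix leucine zipper proteins that bind DNA as heterodimers with MAX and activate genes of growth and metabolism. MXI1, a member of the MXD group, competes for MAX and represses. MGA joins a T-box to a MAX-binding domain and is the scaffold of the Polycomb complex PRC1.6, which keeps germline genes silent in mESCs. The preferred site of these heterodimers is the E-box CACGTG. In mESCs, LIF signalling is known to sustain Myc, and Myc and Mycn are known to support self-renewal together.

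The 200 bases before the starts of Max, Myc, Mycn and Mxi1 are printed. These genes span the range from the strongest to the weakest start peak of the 6 genes. Together their windows hold the 3 motifs described below, of which Myc, Mycn and Mxi1 share the GC box. Each window is read 5′ to 3′ on the strand of the gene in the mm10 sequence. Capitals mark 3 motifs, each searched on both strands. The E-box has the letters CACGTG. The GC box is GGGCGG, seen as CCGCCC where it lies on the other strand. The TATA box is TATAAA, seen as TTTATA where it lies on the other strand. The windows are chr12:76962202-76962401 (minus strand), chr15:61985191-61985390 (plus strand), chr12:12941915-12942114 (minus strand) and chr19:53310318-53310517 (plus strand).
Max: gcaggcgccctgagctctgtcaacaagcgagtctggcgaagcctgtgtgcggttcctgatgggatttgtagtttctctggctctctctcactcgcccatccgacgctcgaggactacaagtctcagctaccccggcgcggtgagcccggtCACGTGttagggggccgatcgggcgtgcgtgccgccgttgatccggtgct
Myc: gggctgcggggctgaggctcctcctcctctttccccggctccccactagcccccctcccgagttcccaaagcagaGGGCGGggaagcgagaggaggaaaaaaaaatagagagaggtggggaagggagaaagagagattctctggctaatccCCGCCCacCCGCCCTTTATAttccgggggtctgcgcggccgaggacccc
Mycn: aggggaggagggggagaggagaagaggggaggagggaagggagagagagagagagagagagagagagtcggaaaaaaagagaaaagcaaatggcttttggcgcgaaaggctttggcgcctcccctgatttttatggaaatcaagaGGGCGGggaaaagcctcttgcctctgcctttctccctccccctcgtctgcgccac
Mxi1: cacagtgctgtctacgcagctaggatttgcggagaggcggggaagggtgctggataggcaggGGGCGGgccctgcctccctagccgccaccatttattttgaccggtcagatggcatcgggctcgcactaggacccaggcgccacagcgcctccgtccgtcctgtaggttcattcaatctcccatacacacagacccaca

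The E-box, the site of MAX dimers, stood in the upstream window of Max, beginning 50 bases before its start, and in none of the other 5 windows. It was found in 5.65% of the 21938 windows of this kind. The GC box stood in the windows of Myc, Mycn, Mga and Mxi1, and in 37.5% of all windows. Myc held it 3 times, at 125, 49 and 41 bases before the start, and the other 3 genes held it once, 55 bases (Mycn), 146 bases (Mga) and 138 bases (Mxi1) before it. The TATA box letters were found in the window of Myc alone, on the other strand at 35 bases before the start, and in 9.29% of all windows. The window of Mycl held none of the letters searched. Such matches describe the letters and not the binding of a factor.

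A peak covered the start of all 6 genes, where 59.2% of protein-coding gene starts were covered. With a −log10 q of at least 10, where q is the p-value of the summit after correction over the genome, all 6 remained covered and the share of protein-coding starts was 45.0%. The heights of the 6 peaks differed widely. Fold enrichment is the number of fragments over the summit plus 1, divided by the local background plus 1, and the fragment number was calculated back from the deposited fold and p-value. Intervals of fragment numbers are exact Poisson 95% intervals and cover counting error only, not the difference between clones.

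Max, the obligate partner of the family, had the strongest start peak of the 6. It lay at chr12:76961740-76962793, with its summit 195 bases upstream of the start, a fold enrichment of 13.3, a −log10 q of 103 and 138 fragments (interval 116 to 163). Of the 12990 protein-coding gene starts with a peak, 98.2% had fewer fragments and 85.5% had a lower fold. These starts share 11824 peaks, and a peak over several starts is counted at each, here and in the shares of start peaks below. The peak covered the E-box printed above.

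Mycn, the family member best known from neural and early embryonic tissue, came next by fragments. Its start peak at chr12:12941552-12943769 had 59 fragments (44.9 to 76.1), a fold of 6.41 and a −log10 q of 26.9. The peak was 2218 bp wide, wider than 98.6% of protein-coding start peaks, and its summit lay 1523 bases upstream of the start, outside the printed window. At that summit the sequence was poor in CpG. The observed number of CpG over that expected from base composition was 0.297 within 150 bases on either side, and only 4.77% of protein-coding start peaks were lower.

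Myc itself had a start peak of many fragments but low fold. The peak at chr15:61984987-61985868 held 56 fragments (42.3 to 72.7), more than 75.4% of protein-coding start peaks, with a −log10 q of 19.4. Its fold of 4.85 was above only 13.1% of them. The local background was 10.8 fragments, higher than at 99.3% of protein-coding start peaks. The summit lay 104 bases upstream of the start, within the printed window.

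Mycl, which encodes the third of the MYC proteins, and Mga had 41 fragments each (29.4 to 55.6) and yet differed in fold. The Mycl peak at chr4:122995420-122996509 had a fold of 6.44 and a −log10 q of 19.3 over a background of 5.52 fragments. The Mga peak at chr2:119896858-119897698 had a fold of 9.63 and a −log10 q of 27.2 over a background of 3.36 fragments. The Mycl summit lay 49 bases upstream of the start. The Mga summit lay 62 bases inside the gene, in the annotated 5′ UTR, and was the richest in CpG of the 6, with an observed over expected value of 0.927.

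Mxi1, the repressor, had the weakest start peak of the 6. The peak at chr19:53310340-53310682 held 32 fragments (21.9 to 45.2), with a fold of 4.67 and a −log10 q of 11. It was 343 bp wide, and 0.970% of protein-coding start peaks were narrower. Its summit lay 1 base upstream of the start.

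By fragments the order was Max, Mycn, Myc, Mycl and Mga at the same number, then Mxi1. The interval of Max did not overlap that of Mycn, whereas all other neighbours in this order overlapped. The Mycn value was read at a summit 1523 bases upstream of the start, and no value at the Mycn start itself was at hand. The summits of the other genes lay at most 195 bases from their starts. By fold the order was Max, Mga, Mycl, Mycn, Myc and Mxi1. The change of order went with the local background, which differed from 3.36 fragments at Mga to 10.8 at Myc.

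**Figure D1:**
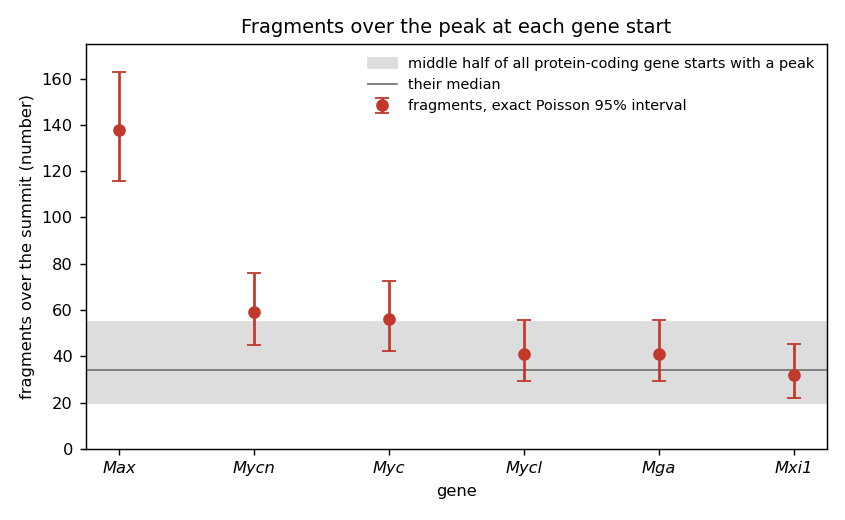
Fragments over the summit of the peak at each gene start (y axis, number) for the 6 genes (x axis), with exact Poisson 95% intervals, which cover counting error only. The grey band is the interquartile range (20 to 55) and the line the median (34) of 12990 protein-coding gene starts with a peak. Max stands at 138, above the other genes at 32 to 59. The Mycn summit lies 1523 bases upstream of the gene start.

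Set beside all protein-coding start peaks, the 6 genes had more fragments and lower folds. Their median fragment number was 48.5 against 34, and 5 of the 6 exceeded the latter. Their median fold was 6.43 against 8.68, and 4 of the 6, Myc, Mycn, Mycl and Mxi1, fell below the latter. By −log10 q the direction turned, with a median of 23.2 against 21.1. All 6 had a local background above the median of 2.96 fragments, and 5 had one above the upper quartile of 4.32, Mga being the exception. The soft-masked (repeat) share of the peak was above the upper quartile of 10.6% at 5 genes, again all but Mga, which had 5.47%. Whether the background has a part in the low folds was not tested, beyond its place in the formula of the fold.

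**Figure D2:**
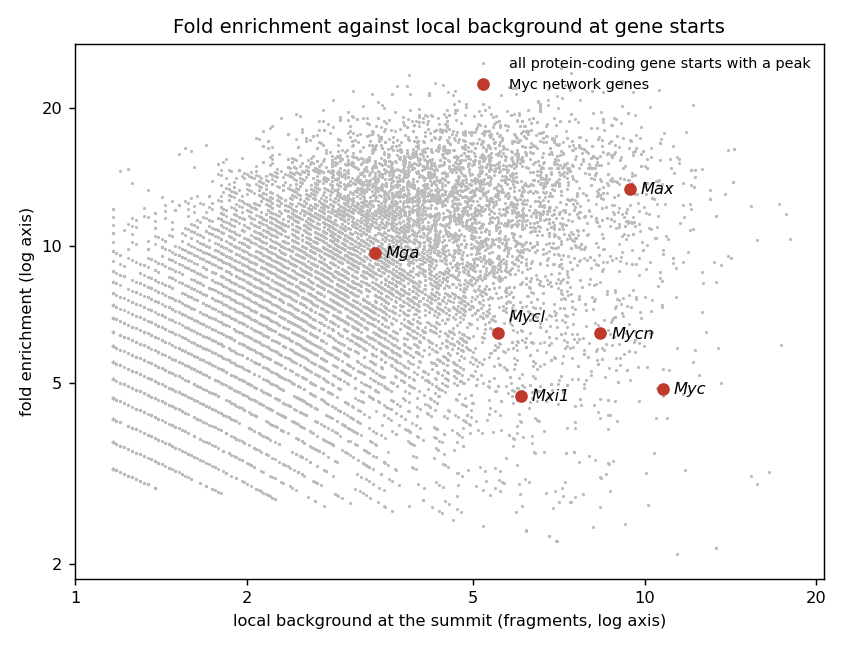
Fold enrichment (y axis, log axis) against local background in fragments (x axis, log axis) for protein-coding gene start peaks (grey points) and the 6 genes (red points). Myc has the highest background of the 6 (10.8) with a fold of 4.85, while Max has a fold of 13.3 at a background of 9.42.

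The annotation gives several starts for each gene, and not all of these were covered. No share over all annotated transcript starts was calculated, so the counts are a description only and no difference between the genes is read from them. Peaks covered 5 of 6 annotated transcript starts of Myc, 2 of 3 of Mycn, 4 of 5 of Mycl, 4 of 7 of Max, 4 of 12 of Mga and 8 of 9 of Mxi1. At Mycn, Mga and Max every covered start lay under the peak at the gene start. At Myc a further peak inside the gene covered the starts of the transcripts Myc-203 and Myc-204. At Mxi1 the covered starts lay under 3 separate peaks.

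The second of these Mxi1 peaks was stronger than the one at the gene start. It lay at chr19:53329047-53330531, with its summit 19.8 kb inside the gene, and covered the starts of 6 transcripts, Mxi1-202 to Mxi1-206 and Mxi1-209. It held 46 fragments (33.7 to 61.4), against 32 at the gene start, and its fold was 8.64 against 4.67. The fragment intervals of these peaks overlapped. The remaining peak, over the start of Mxi1-207, had 9 fragments and a fold of 4.13.

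Per 100 kb around the genes, peaks were dense at 5 of the 6, all but Mga, when all were counted. By the number of strong peaks, those with a −log10 q of at least 10, only 3 genes, Max, Mga and Mxi1, exceeded the upper quartile. Per 100 kb, a setting added after the data were seen, all but Mycn exceeded it, Myc, Mycl and Mga narrowly. Mycn lay between the median and the upper quartile there. The neighbourhoods held 15 peaks at Myc, 12 at Mycn, 13 at Mycl, 20 at Max, 8 at Mga and 17 at Mxi1. Per 100 kb this was 14.3 for Myc, 11.3 for Mycn, 12.2 for Mycl, 16.0 for Max, 4.64 for Mga and 10.3 for Mxi1. The median over all protein-coding genes was 6.15, with quartiles of 3.81 and 8.76. All but Mga exceeded the upper quartile, and 98.9% of windows were less dense than that of Max. The window of Mga was denser than 33.1% of windows.

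Peaks with a −log10 q of at least 10 numbered 3 at Myc, 2 at Mycn, 3 at Mycl, 6 at Max, 5 at Mga and 6 at Mxi1. By this number, only 3 of the 6, Max, Mga and Mxi1, exceeded the upper quartile of 4 over all protein-coding genes. Per 100 kb, a setting added after the data were seen, this was 2.86 for Myc, 1.89 for Mycn, 2.81 for Mycl, 4.80 for Max, 2.90 for Mga and 3.63 for Mxi1. The median over all protein-coding genes was 1.64 and the upper quartile 2.75, which Myc, Mycl and Mga passed narrowly. Mga, low when all peaks were counted, was level with Myc and Mycl here. Of all 85 peaks, 25 (29.4%) reached that value, against 22.2% of all peaks.

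**Figure D3:**
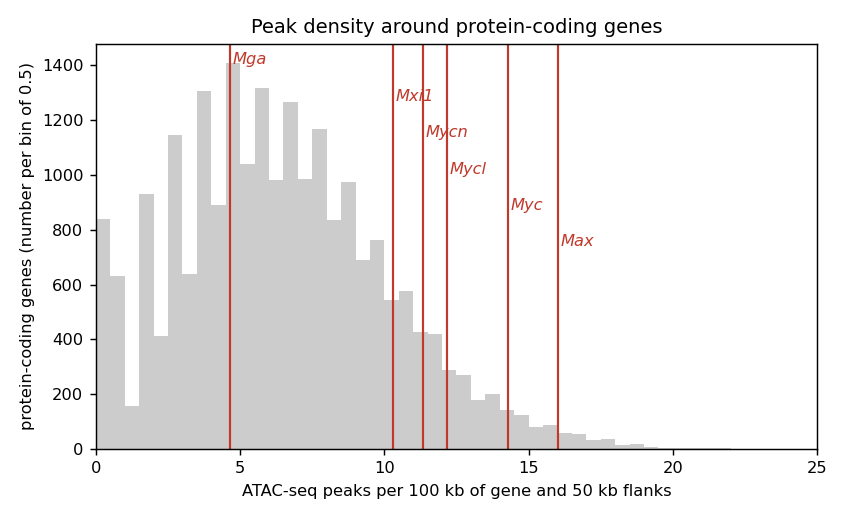
Histogram of peaks per 100 kb of gene and 50 kb flanks (x axis) over 21938 protein-coding genes (y axis, number of genes per bin), with the 6 genes as red lines. Mga lies at 4.64, below the median of 6.15, and the other 5 genes lie between 10.3 and 16.0.

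Of the 85 peaks, 6 covered the start of their own gene and 10 covered the start of another gene. A further 3 had a summit within 1 kb of a gene start without covering it, and 66 lay away from gene starts. Distances were taken to the starts of gene records only. The 66 therefore include peaks over internal transcript starts of the 6 genes, 1 at Myc, 1 at Mycl and 2 at Mxi1. Counting every peak with its summit over 1 kb from each gene start, which takes in the wide Mycn start peak, the number was 67 (78.8%, exact binomial 95% interval 68.6% to 86.9%), beside 84.9% of all peaks. Among peaks with a −log10 q of at least 10 the order turned, with 68.0% at the 6 genes against 60.8% of all. The 66 peaks away from gene starts were mostly weak. Their median fold was 3.70, as for all such peaks in the genome, while their median fragment number was 13.5 against 8 and their median background 1.93 against 1.26 fragments. Fewer than 10 fragments stood behind 28 of the 85 peaks (32.9%), against 53.7% of all peaks. Repeats took over 50% of the bases in 3 of the 85 peaks (3.53%), against 21.0% of all peaks.

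**Figure D4:**
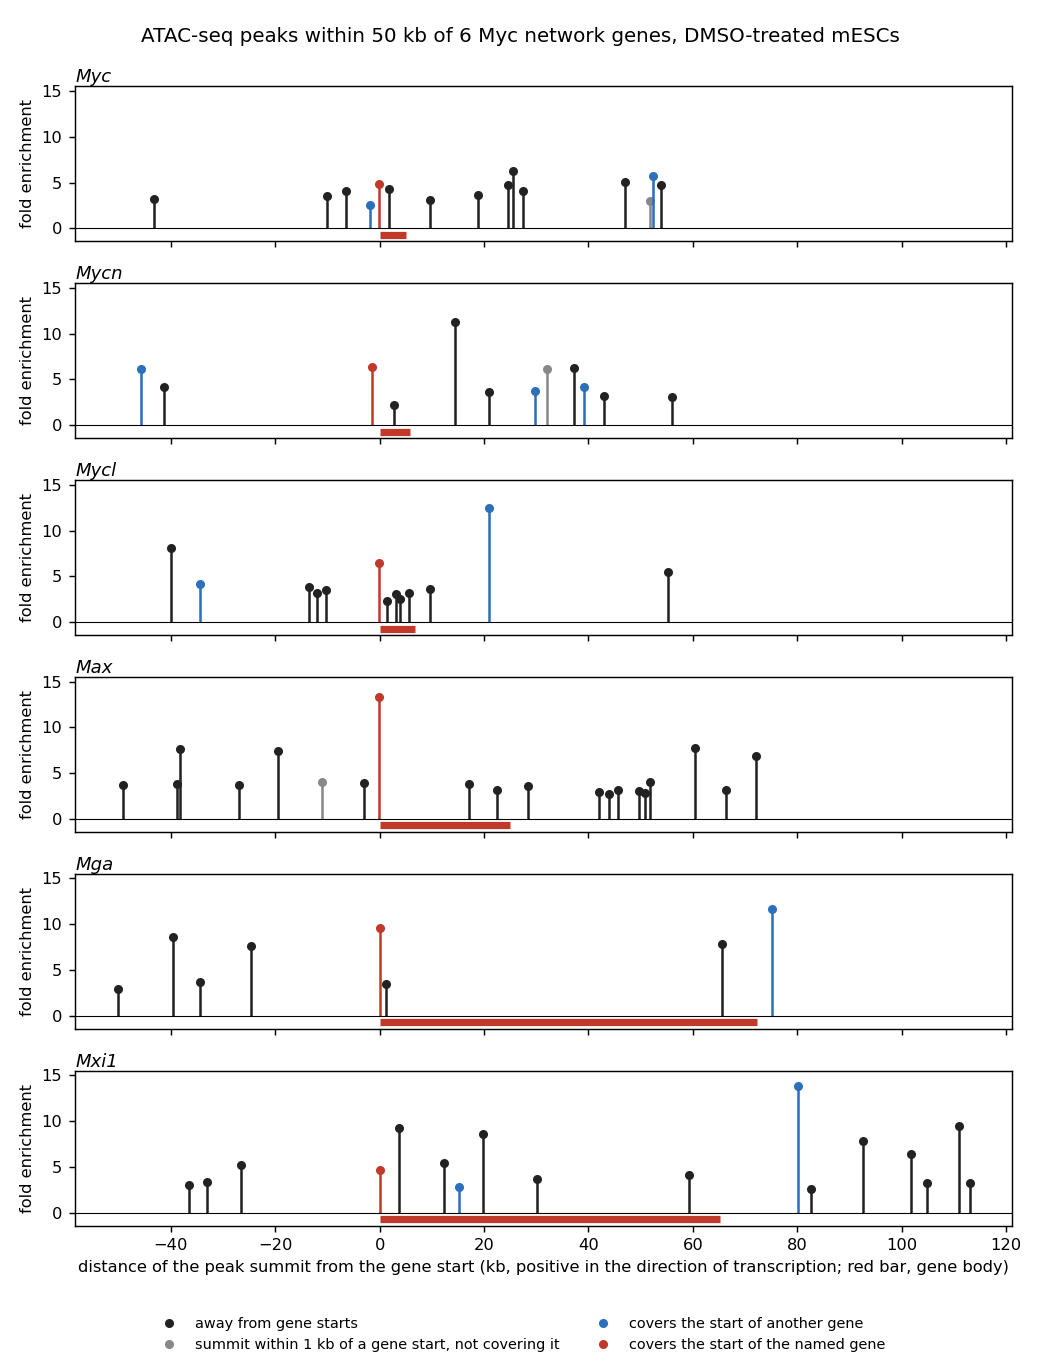
Fold enrichment (y axis) of every peak around each gene by the distance of its summit from the gene start in kb (x axis, positive in the direction of transcription), with the gene body as a red bar. Red peaks cover the start of the named gene, blue the start of another gene, grey lie within 1 kb of a start and black lie away from gene starts. At Mycn a black peak at 14.5 kb (fold 11.3) rises above the start peak (6.41), and at Max the start peak (13.3) is above all others.

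Mycn had the strongest peak away from gene starts by fold of all 6 genes. It lay between genes at chr12:12926884-12927878, 14.5 kb downstream of the start and beyond the end of the gene, with 40 fragments (28.6 to 54.5), a fold of 11.3 and a −log10 q of 30.1. Its fold exceeded that of the start peak, while its fragment number of 40 did not exceed the 59 there. Among all peaks, 94.8% had a lower fold. The next peaks by fold were one at 37.2 kb, in an exon of the noncoding gene 4930519A11Rik, with 19 fragments and a fold of 6.29, and one at 41.3 kb upstream with 10 fragments and a fold of 4.17. The nearest downstream peak, in an intron of Mycn, had 22 fragments but a fold of only 2.22 over a background of 9.38 fragments.

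The sequence at the summit of the strong downstream peak of Mycn is printed because this peak, with the highest fold of those away from starts, lies outside every annotated gene. It covers chr12:12927363-12927463 of mm10 and is read on the strand of Mycn (minus). It holds none of the letters searched, so it has no capitals.
Mycn downstream peak: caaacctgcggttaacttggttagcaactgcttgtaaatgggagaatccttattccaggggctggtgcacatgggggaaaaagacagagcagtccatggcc

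At Myc the surroundings were a run of modest peaks, none above a fold of 6.32. The highest lay between genes at chr15:62010747-62011179, 25.5 kb downstream of the start, with 22 fragments (13.8 to 33.3), a fold of 6.32 and a −log10 q of 11.2. Peaks at 24.5 and 27.5 kb, with 16 and 14 fragments and folds of 4.75 and 4.03, flanked it. The peak inside the gene that covered the further transcript starts lay at chr15:61986588-61987612, with 50 fragments (37.1 to 65.9) and a fold of 4.34, so that its interval overlapped that of the start peak. Upstream, the nearest peak away from starts lay at 6.51 kb, with 16 fragments and a fold of 4.13.

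Further downstream of Myc lies Pvt1, a long noncoding RNA gene known as its neighbour. The peak over its start, which also covered that of Gm27913, had 21 fragments and a fold of 5.73. Peaks at 46.9 and 53.9 kb from the Myc start, the latter in an exon of Pvt1, had 12 and 20 fragments and folds of 5.04 and 4.75. A peak 1.83 kb upstream of Myc, over the start of Gm37947, had a fold of 2.52 with 29 fragments over a background of 10.9.

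Mycl was surrounded by weak peaks and flanked by stronger ones in its neighbours. The peaks with their summit inside the gene had 16, 21, 17 and 16 fragments and folds of 2.34, 3.05, 2.49 and 3.18, and the second of them covered the start of Mycl-203. The highest peak away from starts lay 39.9 kb upstream, in an intron of Mfsd2a, which encodes a lipid transporter, with 29 fragments and a fold of 8.06. The start of Mfsd2a itself, shared with 4933421A08Rik, had a weaker peak of 11 fragments and a fold of 4.17. The start of Trit1, encoding a tRNA-modifying enzyme, had 46 fragments (33.7 to 61.4) and a fold of 12.5, above the 41 fragments and fold of 6.44 at Mycl, with overlapping fragment intervals. The second highest peak away from starts, in an intron of Trit1 55.3 kb downstream, had 13 fragments and a fold of 5.51. The third, 13.5 kb upstream of Mycl, had 8 fragments and a fold of 3.85, and the nearest upstream peak, at 10.3 kb, also had 8 fragments, with a fold of 3.46.

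At Max none of the 18 peaks away from gene starts reached the fold of the start peak. The highest lay 60.4 kb downstream in an intron of Fntb, which encodes a farnesyltransferase subunit, with 27 fragments and a fold of 7.78. The next lay 38.2 and 19.5 kb upstream in introns of the noncoding gene Gm35041, with 17 and 16 fragments and folds of 7.69 and 7.46. The nearest upstream peak, at 3.09 kb, had more fragments, 41 (29.4 to 55.6), but a fold of 3.92 over a background of 9.72. Within Max, the peak nearest to the start lay 17.2 kb downstream in an intron, with 8 fragments and a fold of 3.85.

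Mga had few peaks, of which most were well above the threshold. Upstream, peaks between genes at 39.6 and 24.7 kb had 27 and 21 fragments and folds of 8.59 and 7.64. An intronic peak 65.6 kb downstream of the start, near the end of the gene, had 16 fragments and a fold of 7.86. Between it and a small intronic peak at 1.13 kb, with 14 fragments and a fold of 3.50, the gene body had no other peak. The start of Mapkbp1, the next gene, had 35 fragments and a fold of 11.7.

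Mxi1 was the only one of the 6 with peaks away from gene starts that had more fragments than its start peak. How many of all protein-coding genes have such peaks was not counted. An intronic peak at chr19:53313470-53314604, 3.79 kb downstream of the start, had 68 fragments (52.8 to 86.2), a fold of 9.27 and a −log10 q of 41.5. Its interval lay above that of the start peak (21.9 to 45.2). A peak between genes at chr19:53421019-53421811, 111 kb downstream, had 52 fragments (38.8 to 68.2) and a fold of 9.46, and its interval overlapped that of the start peak. The third was the peak over the 6 internal transcript starts. The start of Smndc1, encoding a splicing factor, and of AC133451.1 had the strongest peak of the neighbourhood, with 84 fragments (67.0 to 104) and a fold of 13.9. Upstream, the nearest peak away from starts lay at 26.5 kb with 16 fragments and a fold of 5.18.

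By fold, 7 of the 14 peaks away from gene starts at Mxi1 exceeded its start peak. The same held for 2 of 11 at Myc, 1 of 7 at Mycn, 1 of 10 at Mycl, none of 18 at Max and none of 6 at Mga. The 7 at Mxi1 include the peak over the 6 internal transcript starts. The fold of the Mxi1 start peak was itself low, above 11.8% of protein-coding start peaks. How often such peaks exceed the start peak at all protein-coding genes was not counted, so nothing particular to Mxi1 is read from these numbers. The remaining starts under a neighbourhood peak were those of noncoding genes or a pseudogene, with folds of 4.17 (4930519A11Rik), 3.76 (Rpl36-ps3), 6.15 (Gm35208) and 2.84 (AC133451.2).

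Within 150 bases of the summit, CACGTG was found in 7 of the 85 peaks (8.24%, exact binomial 95% interval 3.38% to 16.2%), and in 5.19% of all peaks, which lies inside that interval. Among peaks with a −log10 q of at least 10 the order turned, with 4.0% against 6.57% of all. Of the 7, the Max start peak alone had more than 20 fragments. The others lay at Mycl, 10.3 kb upstream and 1.43 kb downstream of the start with 8 and 16 fragments, in an exon of Fntb with 12, at Mga 1.13 kb downstream with 14, and at Mxi1 30.1 and 82.6 kb downstream with 7 and 15. GGGCGG was in 17 peaks (20%, and 19.4% of all peaks), with an interval of 12.1% to 30.1%. TATAAA was in 4 (4.71%, interval 1.3% to 11.6%), and the 11.7% of all peaks that held it lay just above that interval, which covers counting error only. The octamer ATGCAAAT was in 1 peak (1.18%, and 3.02% of all). TTTCCCGC (E2F), TCAAGGTCA (Esrrb) and TTCCNGGAA (STAT), all searched on both strands, were in none of the 85 peaks and in 0.590%, 1.06% and 1.05% of all peaks. For 85 peaks a count of 0 allows a share of up to 4.25% by the exact interval, so a lower share at these genes was not detectable.

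The genes that act with the family were counted in 4 lists. Of 34 genes, 30 had a peak over the start (59.2% of protein-coding starts), and 24 had one with a −log10 q of at least 10 (45.0% of protein-coding starts). The lists were chosen for their function, hold broadly used genes and are no sample of all genes, so nothing is read from the difference.

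Of the rest of the MAX and MLX network (Mxd1, Mxd3, Mxd4, Mnt, Mlx, Mlxip and Mlxipl), 6 of 7 starts were covered. Mxd4, a further MAX-binding repressor, had the highest fold, 16.2. Mlxipl, encoding the glucose-responsive factor ChREBP, had the lowest, 3.70 with 7 fragments, and at Mnt, a MAX-binding repressor, no peak covered the start, but one with 64 fragments and a fold of 5.73 lay 122 bp from it. All 12 partners of MGA in PRC1.6 were covered, from a fold of 5.05 at Pcgf6, the subunit that defines this complex, to 14.3 at Hdac2, a histone deacetylase with 96 fragments. Among Myc cofactors, 7 of 9 starts were covered. Ep400, a chromatin remodelling ATPase, was highest with a fold of 15.2, the acetyltransferase Kat2a was lowest with 4.58, and Ruvbl2 (a helicase-like ATPase) and Actl6a (an actin-related subunit of remodelling complexes) had none. Among genes of MYC turnover, 5 of 6 were covered. The kinase Aurka, which stabilizes MYCN, had the highest fold, 14.9, and the ubiquitin ligase Huwe1 the lowest, 5.07. Gsk3b, the kinase that marks MYC for degradation, had the most fragments, 159, and no peak covered the start of the ubiquitin ligase subunit Skp2. For Ruvbl2, Actl6a and Skp2, there was also none within 500 bp, so 31 of the 34 genes had a peak at that distance.

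Markers of the cells were read the same way, beside the 59.2% of all protein-coding starts with a peak. With so few genes, neither count of covered starts was read as a sign of the cell type. Of 6 pluripotency genes, 4 had a start peak, with 151 fragments at Zfp42, 44 at Klf4, 40 at Nanog and 17 at Pou5f1, and 3 of the 6 reached a −log10 q of at least 10, which Pou5f1 did not (2.73). No peak covered the annotated starts of Sox2 and Esrrb, but one of 42 fragments lay 226 bp from that of Sox2. Of 7 fibroblast genes, 3 had one, with 11 fragments at Thy1 and 12 each at Twist2 and Pdgfrb, none with a −log10 q of at least 10, beside 45.0% of all protein-coding starts. The collagen genes Col1a1, Col1a2 and Col3a1, and Dcn, had no peak over the start. Within 500 bp there was one at Col1a2, 75 bp away with 23 fragments and a −log10 q of 13.7, and one at Col1a1, 313 bp away with 18 fragments and a −log10 q of 9.75, and none at Col3a1 or Dcn. The share of fragments from feeder cells in the peaks of the 6 genes was not tested.

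**Figure D5:**
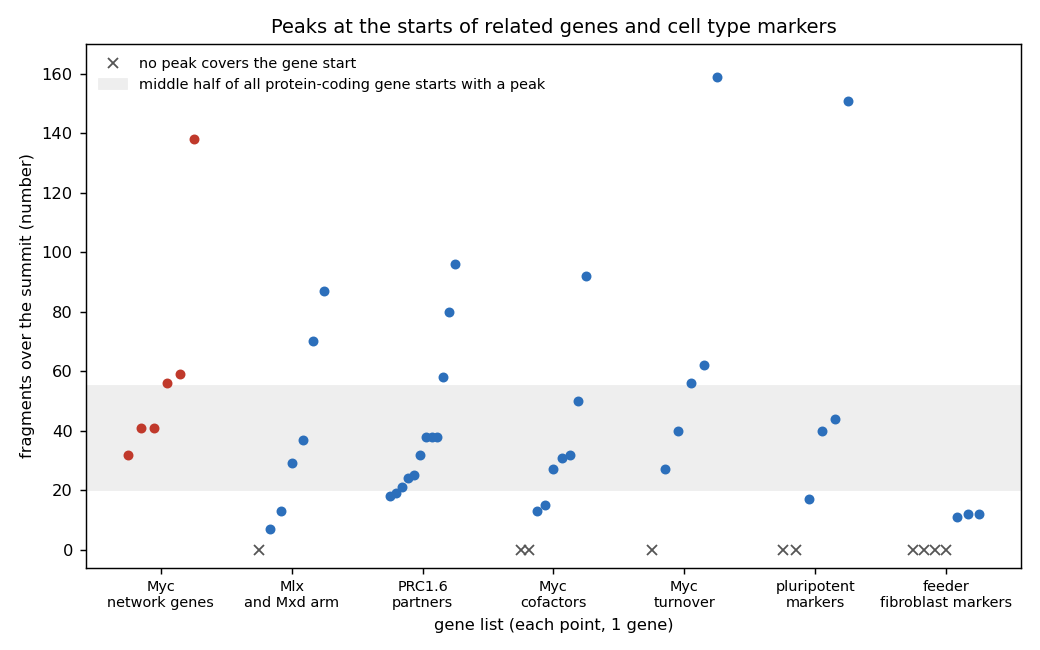
Fragments over the summit of the start peak (y axis, number) for each gene of the 6 Myc network genes (red), 4 related lists and 2 marker lists (blue). Crosses mark genes whose start no peak covers, though one may lie close by, and the grey band is the interquartile range of all protein-coding start peaks. The Myc network genes range from 32 to 138, the pluripotency markers with a start peak from 17 to 151 and the fibroblast markers with one from 11 to 12.

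The protein-coding genes most like each member were found by the Euclidean distance over 4 standardised measures of the merged list, namely the fold and width of the start peak, the number of neighbourhood peaks and the highest fold away from gene starts. A small distance means likeness in these measures only. Mga had the nearest gene of all, Grhpr (distance 0.0991), then Pdk1 (0.222). For Myc they were Pex14 (0.182) and Foxh1 (0.274), and for Mycl Cgas (0.213) and Cdt1 (0.224). For Mycn they were Nudt4 (0.326) and Lipg (0.355), and for Max Depdc1b (0.362) and Fbxl13 (0.413). Mxi1 stood farthest from any other gene, with Tubb5 at 0.588 and Igsf8 at 0.636.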

How the data were processed

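ATAC-seq was performed by the authors on 2 clones, and the deposited file is 1 peak list for both merged. Per the study's methods, reads that matched several places were put at 1 best place, ties at random. The submitters' processing notes name STAR 2.7.10, Picard 2.26.0, SAMtools 1.14, bedtools 2.30.0, MACS2 2.2.6 and mm10. The authors deposited a fold enrichment, which is a ratio of summit fragments to local background, each plus 1. The −log10 p-value and −log10 q-value of the summit and the summit offset were used as deposited. The deposited score was not used. Library totals were not analysed here, and depth is given as fragments per summit, calculated from fold and p-value by the MACS2 formulas. The number came out whole, with the p-value matched within a relative tolerance of 0.0001, for 116778 of 116782 peaks and for all 85 described here. In 5000 simulated peaks made with the same formulas, 99.5% of the fragment numbers were recovered. That checks the inversion only, and not whether the deposited values follow the formulas.

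Gene starts are the 5′ ends of gene records in GENCODE vM21, and sequences and repeat masking came from the GRCm38.p6 genome of RefSeq, with the coordinates of mm10. A neighbourhood peak overlaps the gene or its 50 kb flanks by at least 1 base. CpG, GC and motifs were read in 301 bases centred on the summit. Python 3.11.15, NumPy 2.4.6, pandas 2.3.3, SciPy 1.17.1 and samtools 1.23.1 were used. Named were the 6 genes, other genes whose start lay under a neighbourhood peak, the 3 highest peaks away from starts and the nearest on each side, the highest, lowest and uncovered gene of each list, and the 2 genes most like each member, leaving out Gm and Rik names. Other peaks and genes named, among them Gsk3b, the markers, the peaks flanking the 25.5 kb peak of Myc and those holding CACGTG, were chosen after their values were seen. The genes and lists were chosen with earlier results of these data known. Alternatives changed the q limit, flank, overlap, distance from starts, set ranked against, measure and sequence window.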

Additional observations from a re-analysis of the deposited data

How the results depend on the processing

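Of 22 alternatives to 9 results, 15 left the value within the limits set (the same number of covered starts, a count within 1.5 times, or a share inside its interval) and 7 moved it. All 6 starts kept a peak with a −log10 q of at least 10. The other alternatives for starts, a peak within 500 bp or over any transcript start, only loosen the rule and could lose none. The 85 neighbourhood peaks became 51 with flanks of 25 kb, 136 with 100 kb and 25 with a −log10 q of at least 10. The median of the 6 start peaks by fold, at 27.9% of protein-coding start peaks lower, became 77.4% among all peaks and 53.2% by −log10 q. The share of peaks away from gene starts, 78.8%, became 68.2% at over 2500 bp (79.7% of all peaks) and 68.0% with a −log10 q of at least 10. Under the latter the order against all peaks turned, since 60.8% of those lay away from starts. The share of peaks with CACGTG also turned from above to below that of all peaks with a −log10 q of at least 10 (4.0%, and 6.57% of all peaks), and stayed above it in whole peaks (14.1%, and 11.3%). The order of the start peaks by fragments was kept in 10 of 14 pairs by fold and 12 by −log10 q. No paired analysis was possible because the list merges both clones, and for the same reason no replicate could be left out. Peaks of few fragments near the minimum of 6 are the least certain. Single copies of repeats share reads placed at random.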
